A study of Mus musculus with 4 samples.

Results

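The genes described here encode the phagocyte NADPH oxidase and the inducible nitric oxide synthase, which give macrophages their reactive oxygen and nitrogen species. The group was defined by name as 5 subunit genes of the oxidase (Cybb, Cyba, Ncf1, Ncf4 and Rac2) together with Nos2. All 6 of 6 were measured, each by 1 probe set annotated with a single symbol, among 18782 genes tested. Alveolar macrophages, the resident macrophages of the lung airspaces, were sorted from adult mice on a C57BL/6 background. In KO mice (CD11c-Cre/Pparg fl/fl) the CD11c promoter drove a Cre recombinase against floxed alleles of Pparg, the gene of the lipid-sensing nuclear receptor PPARγ. WT mice (Pparg fl/fl) had the same floxed alleles but lacked Cre. Cre under this promoter acts in all CD11c-expressing cells, so the genotype is not limited to alveolar macrophages. Both groups were gated as viable CD45-positive, CD11c-high, autofluorescent and Siglec-F-positive, but the CD11b gate differed, being set high for KO cells and low for WT cells. The labels describe the KO cells as arrested and immature and the WT cells as mature. Each group had 2 arrays, and each array held RNA from cells pooled from 2 mice.

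The oxidase is assembled on demand. A membrane flavocytochrome, made of the catalytic subunit gp91phox (Cybb) and its stabilising partner p22phox (Cyba), stays inactive until cytosolic proteins, among them p47phox (Ncf1), p40phox (Ncf4) and a Rac GTPase, move to it, after which electrons pass from NADPH to oxygen and superoxide forms. In humans, loss of gp91phox, p22phox, p47phox or p40phox causes chronic granulomatous disease or a related defect of the phagocyte oxidase. Inducible nitric oxide synthase makes nitric oxide from arginine with tetrahydrobiopterin as a cofactor, and in mouse macrophages its gene is known to be switched on by interferon-gamma and microbial products.

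In KO macrophages 2 cytosolic subunit genes were higher, Ncf4 by 1.74-fold and Ncf1 by 1.59-fold, while no difference was detected for the flavocytochrome genes Cybb and Cyba, for Rac2 or for Nos2. Counts of 2 higher, 0 lower and 4 not past the test came from limma's moderated test at an adjusted p under 0.05, and at an unadjusted p under 0.05 they were the same 2 genes. Over all genes 14.3% were called in either direction, 7.41% as higher and 6.86% as lower in KO. The 2 KO arrays lay both above the 2 WT arrays for 3 of the 6 genes (Ncf1, Ncf4 and Rac2) and overlapped for the other 3. Over all genes 55.3% had groups that did not overlap, with both KO arrays above in 25.3% and below in 30%. The median KO minus WT difference of the 6 genes was 0.12 on the log2 scale, beside -0.01 over all genes. All values below are log2 expression values as deposited, differences are KO minus WT with the standard error (SE) of the fit, and p-values are Benjamini-Hochberg adjusted over all genes tested. Levels of different genes are not compared, since probe sets differ in how brightly they bind.

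**Figure D1:**
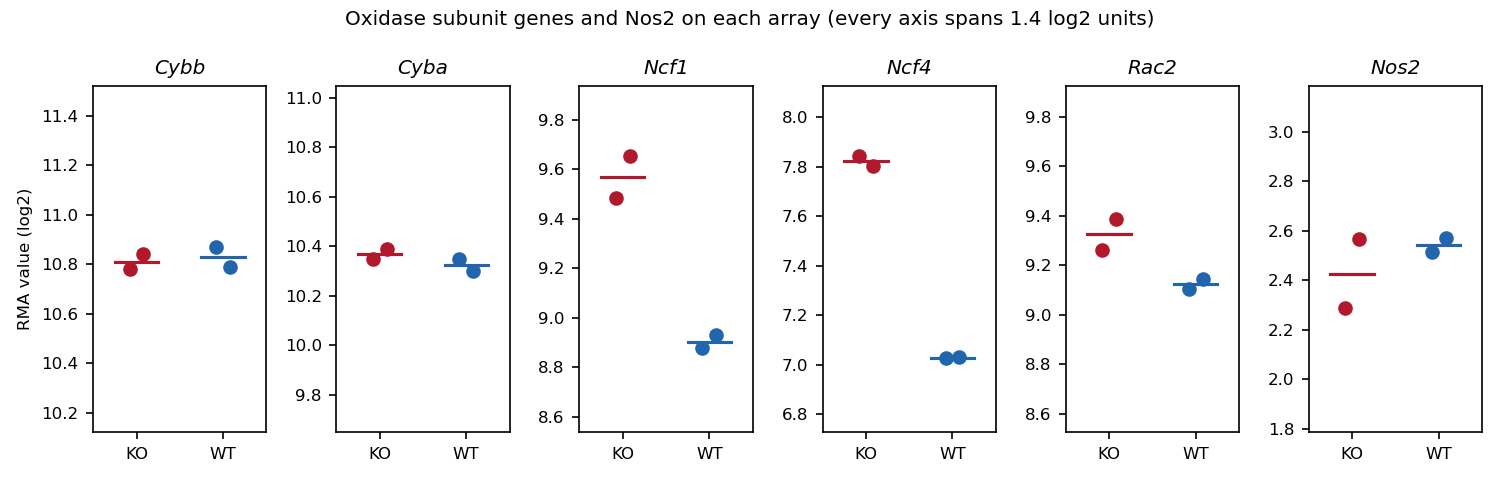
Log2 expression value (vertical axes, each spanning 1.4 log2 units) of the 5 oxidase subunit genes and Nos2 on the 2 KO arrays (left, red points) and the 2 WT arrays (right, blue points), with horizontal lines at the group means. Both KO arrays lie well above both WT arrays for Ncf1 and Ncf4 and slightly above them for Rac2, while the groups overlap for Cybb, Cyba and Nos2.

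The reference table held promoter sequences for 3 of the 6 genes, Ncf1, Cyba and Cybb. They are shown because Ncf1 was higher in KO macrophages and no difference was detected for the other two. Each run is the 250 bases before the annotated start, 5′ to 3′ on the minus strand (RefSeq, GRCm38.p6). Ncf1 lies at chr5:134229626-134229875, Cyba at chr8:122432941-122433190 and Cybb at chrX:9469325-9469574. Capitals mark every match, on either strand, to the motifs searched that lies wholly within these bases.
Ncf1: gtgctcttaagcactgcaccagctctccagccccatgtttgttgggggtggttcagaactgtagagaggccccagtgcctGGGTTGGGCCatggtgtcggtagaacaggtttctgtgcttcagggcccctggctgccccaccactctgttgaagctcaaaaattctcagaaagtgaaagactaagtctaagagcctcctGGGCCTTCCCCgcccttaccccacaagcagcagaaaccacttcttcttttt
Cyba: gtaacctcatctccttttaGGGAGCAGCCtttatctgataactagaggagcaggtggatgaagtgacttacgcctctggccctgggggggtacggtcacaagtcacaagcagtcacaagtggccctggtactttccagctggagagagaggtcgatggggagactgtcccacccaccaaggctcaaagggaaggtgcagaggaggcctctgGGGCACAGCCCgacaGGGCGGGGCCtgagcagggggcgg
Cybb: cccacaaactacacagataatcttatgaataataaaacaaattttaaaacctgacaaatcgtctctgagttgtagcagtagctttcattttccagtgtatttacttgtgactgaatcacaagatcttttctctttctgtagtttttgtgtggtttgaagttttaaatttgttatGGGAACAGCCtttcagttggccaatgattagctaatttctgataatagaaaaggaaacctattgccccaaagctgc
The motifs were the ETS core bound by PU.1 (GAGGAA), an NF-kB-like pattern (GGG and CC with any 5 bases between them), the TATA box (TATAAA) and the nuclear receptor core element (AGGTCA), searched over the window of 300 bases that ends 50 bases after the start. NF-kB-like matches were found in the Ncf1, Cyba and Cybb windows and in 50.8% of all 32851 promoters, and the capital run from position -51 to -41 relative to the start of Ncf1 is made of overlapping matches of this pattern. Cybb held a PU.1 core at positions 10 to 15 after the start, beyond the bases shown, as 28.3% of promoters did somewhere in the window. The windows of Ncf1, Cyba and Cybb held no TATAAA (13.6% of promoters) and no AGGTCA (16.3%). These are matches of letters and were not measured as binding.

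Of the membrane subunits, Cybb, the electron-transferring core of the oxidase, read 10.78 and 10.84 in the KO arrays and 10.87 and 10.79 in the WT arrays. The 4 values lay within the same narrow range and the groups overlapped. The difference was -0.02 ± 0.10 (SE; limma adjusted p = 0.931), with a 95% confidence interval from -0.26 to 0.22, that is from 0.837 to 1.16 times the WT level. Cyba, which encodes the partner that gp91phox needs to be stable, read 10.35 and 10.39 in KO and 10.35 and 10.30 in WT. KO replicate 1 and WT replicate 1 had the same value. The difference was 0.045 ± 0.095 (SE; limma adjusted p = 0.824; interval -0.19 to 0.28). A change of Cybb or Cyba larger than these intervals was therefore not measured, and a smaller one could not be seen with 4 arrays. Both genes were bright, with 99.5% of probe sets below the mean of Cybb and 98.8% below that of Cyba, and whether signal near the top of the scale understates a difference was not tested.

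The cytosolic subunits gave the differences that passed the test. Ncf4 encodes p40phox, which binds the lipid phosphatidylinositol 3-phosphate on phagosomes, and read 7.84 and 7.80 in KO and 7.03 and 7.03 in WT. The arrays of a genotype almost coincided, and the gap between the genotypes was many times wider than either pair. The difference was 0.80 ± 0.09 (SE; limma adjusted p = 0.00309), and the fold of 1.74 had a 95% interval from 1.48 to 2.03. Ncf1 encodes p47phox, the organiser whose phosphorylation starts assembly, and read 9.48 and 9.66 in KO and 8.88 and 8.93 in WT. Its KO arrays were further apart than its WT arrays, yet both stood above them. The difference was 0.67 ± 0.11 (SE; limma adjusted p = 0.0099), and the fold of 1.59 had an interval from 1.33 to 1.90. The interval of Ncf4 on the log2 scale (0.57 to 1.02) and that of Ncf1 (0.41 to 0.92) did not overlap those of Cybb or Cyba. Without KO replicate 2 the Ncf1 difference was 0.58 and no longer passed (adjusted p = 0.064), while Ncf4 passed with any 1 array left out (adjusted p from 0.0117 to 0.03).

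Rac2 encodes the Rac GTPase of blood cells that takes part in the assembled oxidase, and read 9.26 and 9.39 in KO and 9.10 and 9.15 in WT. Both KO arrays were above both WT arrays, by a gap no wider than the distance between the KO arrays. The difference of 0.20 ± 0.10 (SE) did not pass (limma adjusted p = 0.274; interval -0.04 to 0.45). Rac1, the closely related GTPase that macrophages also use for the oxidase, read 9.99 and 10.07 in KO and 10.43 and 10.33 in WT. It lay lower on both KO arrays, and its difference of -0.35 ± 0.10 (SE) did not pass either (limma adjusted p = 0.0718), though it did with dim genes left out (adjusted p = 0.0444) and with an intensity trend (0.00307). Rac1 was chosen after its values were seen, as was Cybc1, which encodes a chaperone of the flavocytochrome and differed by -0.09 ± 0.10 (adjusted p = 0.64).

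**Figure D2:**
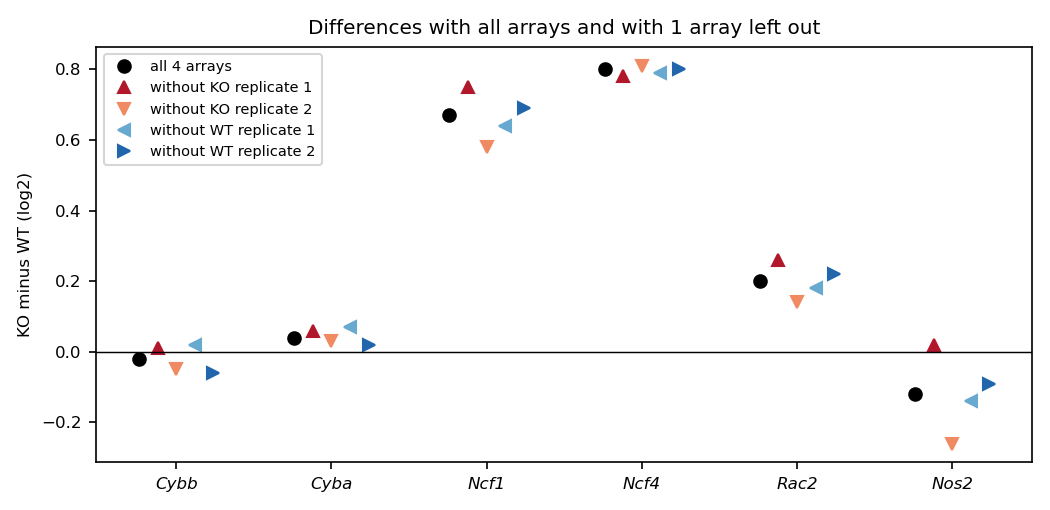
KO minus WT difference in log2 units (vertical axis) for each of the 6 genes (horizontal axis) with all 4 arrays (black) and with each array left out in turn (coloured triangles). Ncf4 stays between 0.78 and 0.81 and Ncf1 between 0.58 and 0.75, while Cybb and Nos2 lie on both sides of 0.

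Nos2 read 2.29 and 2.57 in KO and 2.52 and 2.57 in WT. KO replicate 1 was the lowest and the other 3 values were alike. All 4 values lay below the array median of 3.14, with 37.5% of probe sets below the mean of Nos2, so the probe set was in the dim part of the scale in both genotypes, where RMA values are compressed. The difference was -0.12 ± 0.12 (SE; limma adjusted p = 0.63; interval -0.42 to 0.18), and without KO replicate 1 it was 0.02. No detection call is available for these values, so a low Nos2 level cannot be told from none.

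Genes that act with the oxidase subunits went both ways. Of 20 listed partners 16 were measured, of which 3 rose, 1 fell and 12 did not pass, with a median difference of -0.02. The count of lower genes was 3 with dim genes left out and 4 with an intensity trend in the moderation, with 3 higher in both. Prkcb encodes protein kinase C beta, one of the kinases known to phosphorylate p47phox, and read 8.02 and 8.17 in KO and 3.11 and 3.14 in WT. The WT values lay at the array median and the KO values far above it. The difference was 4.97 ± 0.10 (SE; limma adjusted p = 8.65e-06), and it lay between 4.90 and 5.04 with any 1 array left out. Prkcd, the gene of protein kinase C delta, which also acts on p47phox, was higher by 0.75 ± 0.10 (adjusted p = 0.00457). Vav3, a guanine nucleotide exchange factor for Rac GTPases, was higher by 0.83 ± 0.09 (adjusted p = 0.00263). Prex1, a Rac exchange factor that responds to phosphoinositide 3-kinase and G protein signals, was lower by -0.83 ± 0.11 (adjusted p = 0.00411). These 4 calls held with any 1 array left out. The 12 others, among them Rap1a, Dock2 and Arhgdib, differed by between -0.35 and 0.35.

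**Figure D3:**
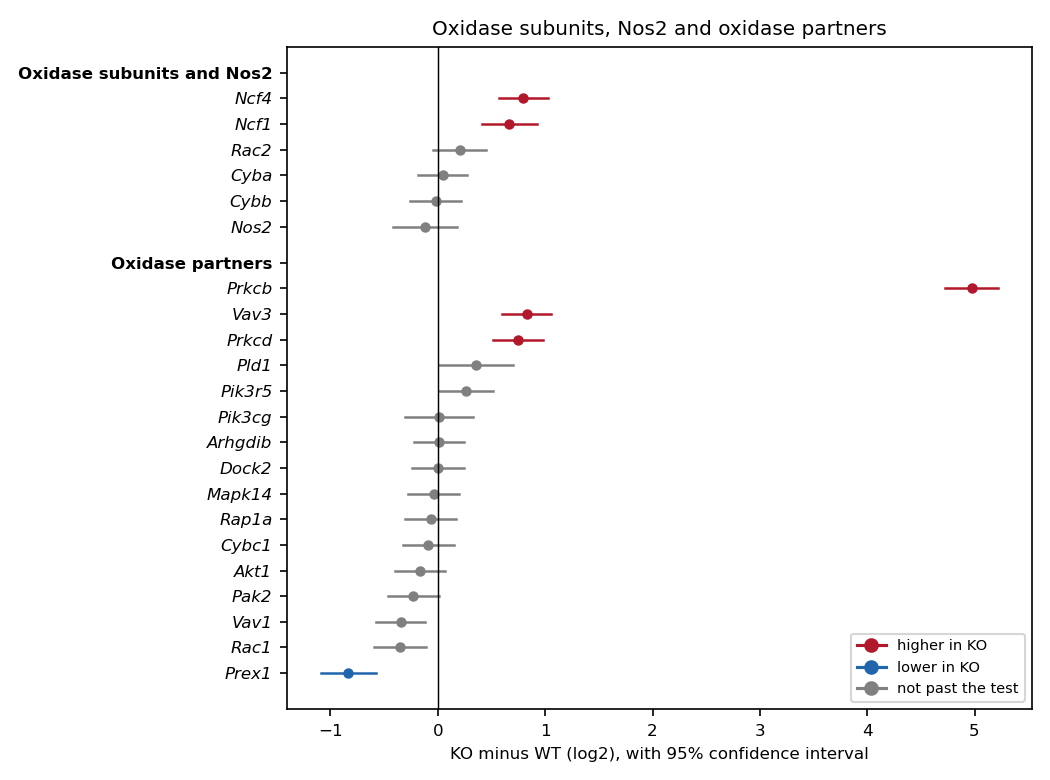
KO minus WT difference in log2 units (horizontal axis) with its unadjusted 95% confidence interval for the 6 genes and 16 measured oxidase partners. Red points are higher and blue points lower in KO at an adjusted p under 0.05, and grey points did not pass. Prkcb stands far to the right at 4.97, and Ncf4, Ncf1, Vav3 and Prkcd lie between 0.67 and 0.83.

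No difference was detected among other enzymes of the same families. Of 11 listed genes of other NADPH oxidases and nitric oxide synthases 9 were measured, and 0 passed limma's test, with 0 at an unadjusted p under 0.05 and a median difference of -0.10. The smallest p-values belonged to Duox2, a dual oxidase of epithelia (-0.17 ± 0.10, adjusted p = 0.349), and Nos1, the neuronal synthase (-0.31 ± 0.18, adjusted p = 0.355). Without WT replicate 2, Nos1 was lower by -0.58 (adjusted p = 0.0414). Across the 9 genes no array exceeded 3.45.

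Genes that supply or use arginine, the substrate of nitric oxide synthases, or act on the synthases were mostly higher where they passed the test. Of 10 measured, 4 rose, 1 fell and 5 did not pass, with a median of 0.28. Ddah1, whose product breaks down methylarginines that inhibit the synthases, read 5.33 and 4.82 in KO and 2.45 and 3.24 in WT. Its KO arrays were both higher although arrays within each genotype differed clearly. The difference was 2.23 ± 0.28 (SE; limma adjusted p = 0.00407). Odc1, which encodes the first enzyme of polyamine synthesis, was higher by 0.91 ± 0.11 (adjusted p = 0.00299), and Nostrin, a trafficking factor of the endothelial synthase, was lower by -0.94 ± 0.13 (adjusted p = 0.00566). The cationic amino acid transporter genes Slc7a1 (0.45 ± 0.10, adjusted p = 0.0267) and Slc7a2 (0.46 ± 0.10, adjusted p = 0.0341) were higher, and neither passed when any 1 array was left out, with adjusted p from 0.0805 to 0.132 for Slc7a1 and from 0.059 to 0.151 for Slc7a2. The list's count of calls was 3 without KO replicate 1, without WT replicate 1 or without WT replicate 2. Arg1, which encodes the arginase that consumes the same substrate and was chosen after its values were seen, read 4.26 and 3.36 in KO and 2.80 and 3.03 in WT, a difference of 0.90 ± 0.28 that did not pass (adjusted p = 0.0934).

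Of 7 measured genes of tetrahydrobiopterin metabolism 2 rose, 1 fell and 4 did not pass, with a median of -0.13. Gch1, the gene of the first enzyme of synthesis, read 6.18 and 6.32 in KO and 5.43 and 5.73 in WT. The genotypes did not overlap, and the difference was 0.67 ± 0.13 (SE; limma adjusted p = 0.0215). Pts, the gene of the enzyme that follows it, was higher by 0.50 ± 0.10 (adjusted p = 0.0219). Qdpr, which encodes the reductase that recycles the cofactor, was lower by -0.64 ± 0.10 (adjusted p = 0.00959). All 3 calls depended on single arrays. Gch1 did not pass without KO replicate 1 (adjusted p = 0.079), KO replicate 2 (0.126) or WT replicate 1 (0.0789). Pts had adjusted p from 0.0592 to 0.119 with any 1 array left out, and Qdpr had 0.0662 without KO replicate 1.

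Of 19 measured regulators and transcription factors of Nos2, some of which also act on the oxidase genes, 4 rose, 3 fell and 12 did not pass, with a median of 0.12. Nfkbia, the gene of the NF-kB inhibitor that NF-kB itself induces, was higher by 1.09 ± 0.14 (SE; limma adjusted p = 0.00382), Ifngr2, a chain of the interferon-gamma receptor, by 0.94 ± 0.13 (adjusted p = 0.00522) and Hif1a, which encodes the oxygen-regulated factor HIF-1 alpha, by 0.76 ± 0.09 (adjusted p = 0.00366). Ifngr1, the other chain of that receptor and named to complete the direction after its values were seen, was higher by 0.64 ± 0.13 (adjusted p = 0.0213). Interferon-gamma itself was dim, and Ifng read 2.13 and 2.26 in KO and 2.35 and 1.87 in WT. Myd88, the adaptor of Toll-like receptors, was lower by -0.88 ± 0.10 (adjusted p = 0.00274). Spi1 encodes PU.1, known from human myeloid cells as an activator of the genes of gp91phox, p47phox and p40phox, and read 9.36 and 9.43 in KO and 9.94 and 9.87 in WT. Both KO arrays were lower, and the difference was -0.51 ± 0.10 (adjusted p = 0.0194). Cebpb, the gene of the factor C/EBP beta, was lower by -0.42 ± 0.10 (adjusted p = 0.0354). The calls of Nfkbia, Ifngr2, Hif1a and Myd88 held with any 1 array left out. Spi1 did not pass without KO replicate 1 (adjusted p = 0.108), KO replicate 2 (0.0758) or WT replicate 1 (0.0886), Ifngr1 without KO replicate 1 (0.11), KO replicate 2 (0.107) or WT replicate 1 (0.0759), and Cebpb with any array left out (0.104 to 0.157). Without KO replicate 1 the list had 3 higher and 1 lower.

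**Figure D4:**
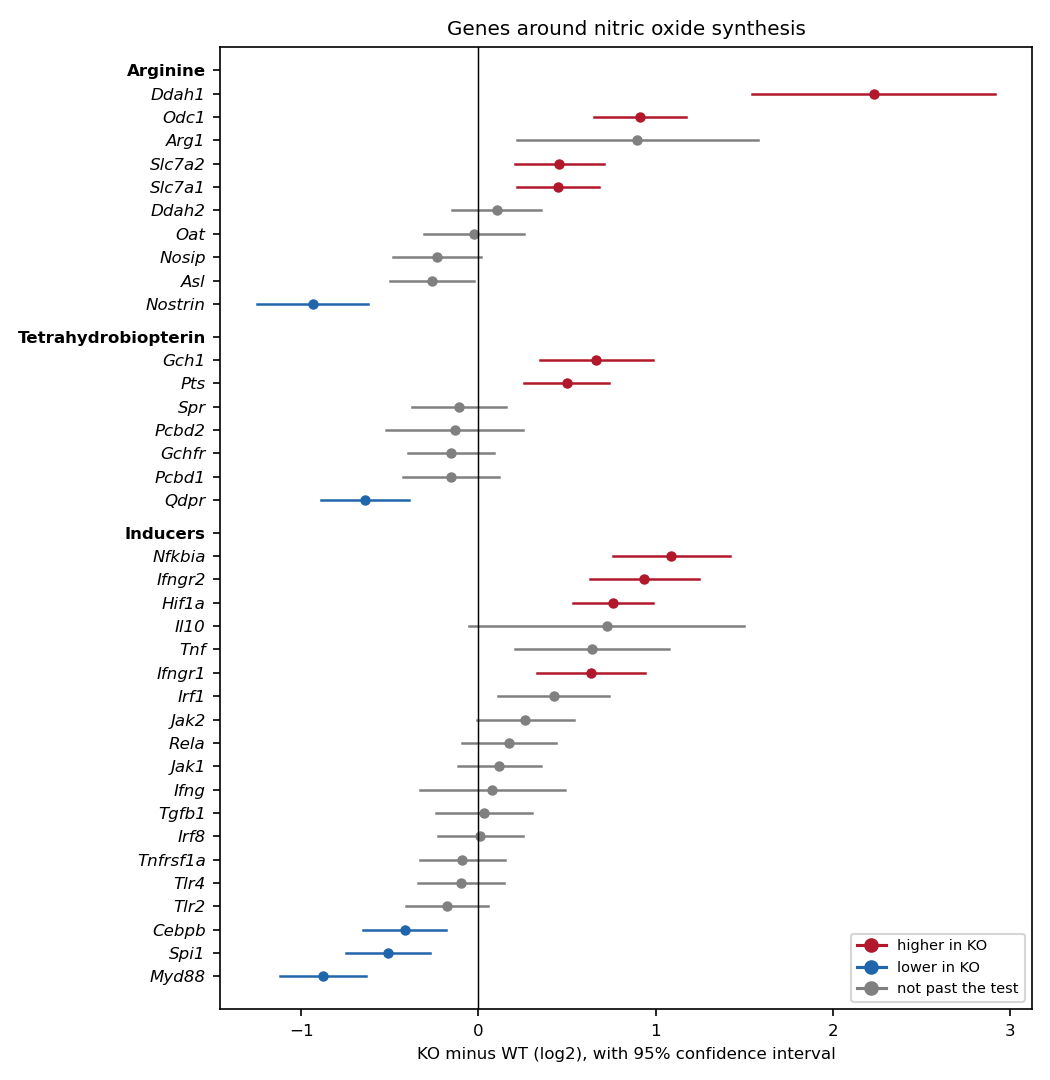
KO minus WT difference in log2 units (horizontal axis) with its unadjusted 95% confidence interval for measured genes of arginine supply and use, tetrahydrobiopterin metabolism and Nos2 induction. Red points are higher and blue points lower in KO at an adjusted p under 0.05, and grey points did not pass. Ddah1 has the highest difference of the genes shown, 2.23, and Nostrin the lowest, -0.94.

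The oxidase draws on NADPH, and its superoxide is removed by dismutases and peroxidases. Of 7 genes listed for NADPH supply 6 were measured, and G6pdx was not. Of the 6, 2 were lower, 0 higher and 4 did not pass, with a median of -0.03. The 4 were Me1, Pgd, Pgls and Tkt, which differed by between -0.125 and 0.39. Taldo1 encodes the transaldolase of the pentose phosphate pathway, an enzyme that does not itself make NADPH. It read 7.79 and 7.80 in KO and 8.84 and 8.77 in WT, a difference of -1.0 ± 0.10 (SE; limma adjusted p = 0.00139). Idh1, the gene of the cytosolic NADP-dependent isocitrate dehydrogenase, was lower by -0.72 ± 0.10 (adjusted p = 0.00478). Both calls held with any 1 array left out. The list for superoxide and peroxide removal was wider than dismutases and peroxidases. Of its 14 measured genes 2 rose, 1 fell and 11 did not pass, with a median of 0.02. Sod2, the mitochondrial dismutase gene, was higher by 0.52 ± 0.11 (adjusted p = 0.0254) and Gclc, which encodes the catalytic part of the first enzyme of glutathione synthesis, by 0.55 ± 0.10 (adjusted p = 0.0151). Hmox1, the haem oxygenase gene, was lower by -0.59 ± 0.10 (adjusted p = 0.0136). None of these 3 passed when either KO array or WT replicate 1 was left out, with adjusted p from 0.0565 to 0.131 for Sod2, from 0.0566 to 0.0924 for Gclc and from 0.0652 to 0.083 for Hmox1. Without WT replicate 2 Hmox1 alone passed (adjusted p = 0.0226), with 0.0885 for Sod2 and 0.0528 for Gclc.

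By distance between gene-centred log2 values over the 4 arrays, the genes most like Ncf4 were Wfs1 (distance 0.014) and Hif1a (0.041), and those most like Ncf1 were Adcy4 (0.045) and Kynu (0.046). Wfs1 differed by 0.80, Hif1a by 0.76, Adcy4 by 0.70 and Kynu by 0.67. With 4 arrays such likeness is common, since 1448 genes lay within a distance of 0.5 of Ncf4 and 2373 within that of Ncf1.

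The genotype and the purity of the sorted cells bear on every value above. Pparg itself read 9.59 and 9.73 in KO and 9.69 and 9.75 in WT (adjusted p = 0.79), and since the position of its probes in the gene is unknown here, it does not check the labels. Itgam, which encodes the CD11b used in the gate, was higher in KO by 5.76 ± 0.14, and Siglecf was lower by -3.27 ± 0.17. Ptprc, the gene of CD45, differed by -0.52 ± 0.10 and lost its call without KO replicate 1 (adjusted p = 0.117), KO replicate 2 (0.0769) or WT replicate 1 (0.0982), and Itgax, the gene of CD11c, differed by 0.24 ± 0.09 (adjusted p = 0.168). Of 10 alveolar macrophage markers 4 were lower and 0 higher in KO, led by Cidec, Fabp1 and Siglecf. Both KO arrays lay below both WT arrays in 8 of the 10 and above in 0, beside 30% and 25.3% of all genes. Marco read 3.04 and 3.37 in KO and 7.22 and 4.43 in WT. Fabp4 read 4.19 and 4.45 in KO and 7.57 and 5.21 in WT. Neither passed (limma adjusted p = 0.0897 and 0.109), and their WT arrays lay far apart. Chil3 and Plet1 stayed above 11 on all 4 arrays. The sorting means that the genotype and the CD11b gate cannot be told apart. In such pooled RNA a change in the share of a cell type and a change in RNA per cell cannot be told apart either.

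Cells rich in the oxidase, neutrophils above all, were checked through markers. Of 14 measured neutrophil markers 2 were higher and 1 lower, and their summed log2 values were 53.3 and 50.8 in KO and 45.6 and 46.9 in WT. S100a8 (1.92 ± 0.18) and Mmp8 (2.76 ± 0.40, with adjusted p = 0.0589 without KO replicate 1 and 0.0596 without KO replicate 2) were higher and Csf3r was lower (-1.54 ± 0.17). Cxcr2 (0.95 ± 0.28), S100a9 (0.57 ± 0.19), Retnlg (0.57 ± 0.21) and Cebpe (0.23 ± 0.10) had both KO arrays above both WT arrays. Camp (-0.25 ± 0.10) had both below. None of these passed (limma adjusted p from 0.077 to 0.217). Over the 14 markers both KO arrays lay above in 6 and below in 2, beside 25.3% and 30% of all genes. Granule genes are given as values and are not compared with each other. Mmp8 read 9.82 and 9.88 in KO and 6.40 and 7.78 in WT, Lcn2 read 3.68 and 3.12 in KO and 3.28 and 3.23 in WT, and Mpo, Elane, Ngp, Camp, Ltf and Mmp9 lay below the array median of 3.14 on all 4 arrays. Of 11 measured monocyte markers 7 were higher and 1 lower, with sums of 70.2 and 69.2 in KO and 62.7 and 63.5 in WT, and the 3 with the smallest p were Cx3cr1 (2.91 ± 0.16), Clec4e (1.48 ± 0.12) and Treml4 (-2.39 ± 0.31). Of 11 interstitial macrophage markers 7 were higher and 1, Mrc1 (-0.44 ± 0.09), was lower. Their sums were 59.5 and 57.6 in KO and 38.0 and 38.2 in WT. The higher markers were led by C1qc, C1qa and C1qb and included Cx3cr1, which is also on the monocyte list. Cd163 and Folr2 lay below the array median on all arrays. The called markers Stab1 and Lyve1, and Vcan and F13a1 of the monocyte list, had means below the median of all probe sets. With dim genes left out, 5 monocyte markers and 5 interstitial macrophage markers were higher. With either KO array or WT replicate 1 left out, between 2 and 4 monocyte markers were higher, and with any 1 array left out between 5 and 6 interstitial macrophage markers were higher and 0 lower. The part that these markers have in the differences of Ncf1, Ncf4 and Prkcb was not tested. Eosinophil markers (0 higher and 1 lower of 8), dendritic cell markers (1 higher and 0 lower of 9), lymphocyte markers (1 higher and 0 lower of 9) and epithelial markers (0 higher and 1 lower of 7) had summed values of 24.5 and 22.2, 29.9 and 32.5, 23.7 and 24.6, and 29.2 and 29.0 in KO against 24.4 and 24.6, 27.9 and 27.8, 23.3 and 22.3, and 32.0 and 27.7 in WT. The single calls were Siglece (-0.54 ± 0.13), Cd209a (2.04 ± 0.19), Cd4 (0.42 ± 0.10) and Ager (-1.32 ± 0.12). Siglece lost its call without KO replicate 1 (adjusted p = 0.171), WT replicate 1 (0.153) or WT replicate 2 (0.0823), and Cd4 with any array left out (0.104 to 0.175).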

How the data were processed

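The authors deposited a log2 value for each probe set. Per the submitters' processing notes it came from RMA, run in R 2.15.2, which corrects background, equalises array distributions and summarises probes. Its settings and the genome build were not given in the sources used here. The 28371 probe sets ran from 0.96 to 12.11, and the 4 arrays shared a median of 3.14, so a shift shared by most transcripts is hidden. The number of arrays limits the precision. The platform annotation gave 1 symbol to 21158 probe sets, several to 1881 and none to 5332. Of the single-symbol probe sets 21128 matched the reference gene table by Entrez identifier. For each gene the single-symbol probe set with the highest mean was kept, with no intensity filter, which left 18782 genes.

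The genotypes were compared in R 4.3.3 with limma 3.58.1 (group as the only term, empirical Bayes, two-sided, 2 residual and 4.16 prior degrees of freedom, Benjamini-Hochberg over all genes, called under 0.05). The fit was tested on simulated data. Each array correlated with the other array of its genotype at r = 0.996 for KO and 0.995 for WT, and arrays of different genotype at 0.974 to 0.980. Of the planned motifs, 1 is not reported here. The 6 genes and the lists were chosen with earlier results of these data known. The plan named the 6 genes and list members past the test, at most 3 each way in a list with over 6. Where none passed, it named the 2 with the smallest p. It also named markers past the test (3 at most), gate genes and the 2 nearest patterns of each called gene. Other genes, such as Rac1, Dock2, Ifng, Tkt, Cxcr2, Mrc1, Chil3 and Marco, were named outside this plan.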

Additional observations from a re-analysis of the deposited data

How the results depend on the processing

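The directions of Ncf1 and Ncf4 were kept under all 15 alternatives. Both calls were kept with arrays centred on their medians, quantile normalization, the intensity filter (which left out Nos2), averaged probe sets, all probe sets, an intensity trend and robust moderation. The arrays already shared a median and each of the 6 genes had 1 probe set, so centring and averaging could not change their differences. RMA had already equalised the arrays, and quantile normalization left the differences of Ncf1 (0.67) and Ncf4 (0.80) as they were. These 3 settings are therefore weak checks of the 2 calls. On within-array normal scores Ncf1 was 0.23 and Ncf4 0.29 and neither passed, with calls of 0 among the 6 genes, 422 over all genes, 1 for oxidase partners, 1 for NADPH supply and 0 for the arginine, tetrahydrobiopterin, Nos2 inducer and superoxide removal lists. Without moderation Ncf1 (0.67) and Ncf4 (0.80) did not pass, and 0 genes were called over all genes and in each list, with 3635 at an unadjusted p under 0.05 against 5006 by limma. Against a difference of 0.5, Ncf1 (0.67) and Ncf4 (0.80) did not pass, and calls were 0 among the 6 genes, 834 over all genes, 1 each for oxidase partners, arginine and NADPH supply and 0 for tetrahydrobiopterin, Nos2 inducers and superoxide removal. With an intensity trend 7 oxidase partners were called (3 higher and 4 lower), and with dim genes left out 6 (3 and 3), against 4 (3 and 1). The cause of these differences was not tested. With 1 array left out, differences ran from -0.06 to 0.02 (Cybb), 0.02 to 0.07 (Cyba), 0.58 to 0.75 (Ncf1), 0.78 to 0.81 (Ncf4), 0.14 to 0.26 (Rac2) and -0.26 to 0.02 (Nos2), and calls from 1 to 2 among the 6 genes, 1380 to 2284 over all genes, 4 to 4 for oxidase partners, 0 to 1 for other oxidases and synthases, 3 to 4 for arginine, 0 to 2 for tetrahydrobiopterin, 4 to 6 for Nos2 inducers, 0 to 1 for superoxide removal and 2 to 2 for NADPH supply. The lone array of a group is then assumed to vary like the other group. With the replicate number as a block, Ncf1 had adjusted p = 0.0154 and Ncf4 0.00782, and 2477 genes were called against 2680, with no call among the 6 genes changed. The labels do not say that a number marks a shared batch. Across genes the replicate differences of KO and WT correlated with r = -0.017. A correlation over all genes cannot exclude a batch acting on some genes, so whether same-numbered arrays belong together is unknown.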
